A study of Mus musculus with 2 samples.

Results

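Nuclei that express Notum and Nkd1 were examined in single-nucleus RNA-seq of the mouse cochlea at postnatal day 7. They were chosen by a marker gate: at least 3 of 6 genes (Notum, Nkd1, Tnc, Epha3, Dab1 and Celf4) had to be detected with at least 1 unique molecular identifier (UMI), Notum or Nkd1 had to be among them, and fewer than 2 genes were allowed from each of 2 exclusion lists, Col6a6, Aldh1a2, Moxd1, Cbln4, Dio2 and Hhip for other mesenchyme and Myo3a, Dytn, Loxhd1 and Strip2 for hair cells. The gate took 3263 of 18897 nuclei that had at least 500 genes, at most 5% mitochondrial UMIs and at most 10000 UMIs. They came from 2 libraries of 10x Genomics 3' nuclear RNA, 1 per group, from tissue labelled as basement membranes of the cochlea. In the library labelled cOE, for Serpine2 conditional overexpression and called cOE below after its label, the genotype was Lgr5EGFP-CreER/+,Serpine2loxp/loxp and 20 cochleae were pooled. In the control library it was Serpine2loxp/loxp and 19 cochleae were pooled. Both groups thus carried the Serpine2 loxp allele on both chromosomes, and both received tamoxifen at postnatal day 1. The Cre recombinase of the cOE mice is expressed from the Lgr5 locus, which marks supporting cells with progenitor capacity. The labels give the cell types of interest as hair cells and supporting cells. Mesenchyme, the name used here for the gated nuclei, lies outside the cells the labels name. The markers read for that name are given below. With 1 pooled library per group there was no replicate: no test between groups was possible, and all intervals below are 95% intervals that cover counting error only.

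Notum encodes a secreted enzyme that removes the lipid from Wnt proteins and so inactivates them. Nkd1 encodes an intracellular inhibitor of Wnt signalling. Both genes are known feedback targets of the Wnt and beta-catenin pathway, in which Frizzled receptors and Lrp co-receptors stabilise beta-catenin, and beta-catenin then activates genes through TCF/LEF factors. In the cochlea, the mesenchymal tympanic border cells that line the underside of the basilar membrane are known to respond to Wnt and to express the feedback gene Axin2, and the extracellular proteins Emilin2 and tenascin-C (Tnc) are known from the basilar membrane.

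Promoter sequences are shown for Nkd1, which the gate used, and for Axin2 and Tnfrsf19, genes of the Wnt target list that it did not use and that were higher in the gated nuclei. Each run is the 250 bases before a RefSeq transcript start (GRCm38.p6), 5' to 3' on the gene's strand, with capitals for a match to the TCF/LEF core motif CTTTGAT or CTTTGAA on either strand.
Nkd1, chr8:88527383-88527632, plus strand: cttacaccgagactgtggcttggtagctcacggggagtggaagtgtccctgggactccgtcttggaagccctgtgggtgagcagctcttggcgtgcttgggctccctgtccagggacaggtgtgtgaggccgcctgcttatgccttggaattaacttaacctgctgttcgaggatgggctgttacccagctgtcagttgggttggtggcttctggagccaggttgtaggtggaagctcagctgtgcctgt
Axin2, chr11:108920099-108920348, plus strand: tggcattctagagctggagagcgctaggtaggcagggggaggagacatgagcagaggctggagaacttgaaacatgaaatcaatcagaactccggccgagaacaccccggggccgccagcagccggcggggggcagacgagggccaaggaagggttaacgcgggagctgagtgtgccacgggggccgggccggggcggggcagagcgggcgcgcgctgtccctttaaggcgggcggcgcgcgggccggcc
Tnfrsf19, chr14:61037988-61038237, minus strand: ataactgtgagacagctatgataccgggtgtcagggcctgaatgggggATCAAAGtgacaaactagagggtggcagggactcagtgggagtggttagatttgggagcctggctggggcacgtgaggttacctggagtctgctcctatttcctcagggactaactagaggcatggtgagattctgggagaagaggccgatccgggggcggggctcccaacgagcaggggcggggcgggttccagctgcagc
The Tnfrsf19 window shown, 1 of 2 for this gene and the only 1 with a match, holds ATCAAAG, the reverse complement of CTTTGAT, from 202 to 196 bases before the start. Of 10 genes looked up (Notum, Nkd1, Tnc, Epha3, Dab1, Axin2, Lef1, Tnfrsf19, Wif1 and Emilin2), 9 were matched, all but Notum, and 1 of their 16 windows held a motif. The share with a motif over all promoter windows of that length was 7.48% (2457 of 32851), and 16 windows are too few to set against that share. In the annotation of GRCm39, the build the series text names, Notum (ENSMUSG00000042988) lies on the minus strand at chr11:120541446-120552019 and Nkd1 (ENSMUSG00000031661) on the plus strand at chr8:89247890-89324577.

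Serpine2, a secreted inhibitor of serine proteases and the gene the cOE genotype is named for, stood at 86.0 CPM (the gene's UMIs scaled to 1000000 UMIs) in all kept nuclei of the library labelled cOE and at 93.7 CPM in control. In the gated nuclei it had 395 and 316 UMIs, or 73.7 and 73.6 CPM, a log2 ratio of cOE over control of 0.00 (-0.22 to 0.22). It stood at 78.2 and 72.6 CPM in epithelial gene nuclei and at 36.0 and 31.2 CPM in hair cell gene nuclei (at least 2 of the 4 genes of the second exclusion list). The higher level that the label names was thus not seen in the gated nuclei, and every direction below refers to the label. Whether the counts include transcripts of the overexpression allele is not given in the sources used here.

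The gate held 1818 of 10305 nuclei in the cOE library (17.6%, exact binomial interval 16.9 to 18.4%) and 1445 of 8592 in the control library (16.8%, 16 to 17.6%). The ratio of the shares, cOE over control, was 1.05 (0.985 to 1.12). The gated nuclei therefore took up a similar share of each library, with an interval that includes no difference. Their depth was also close: a median of 2414.5 UMIs and 1537.5 genes in cOE, and 2434 UMIs and 1544 genes in control. All other kept nuclei had a median of 2444 and 2200 UMIs. The whole libraries held 12014 barcodes with 40429121 UMIs and 9820 barcodes with 31158971 UMIs. The libraries shared 27 barcodes. Of the gated nuclei 6 carried a barcode that was also found in the other library, and 0 barcodes were gated in both. Epithelial gene nuclei (at least 4 of the 8 inner sulcus and interdental markers) made up 14.8% of the cOE and 7.95% of the control library, a ratio of 1.86 (1.71 to 2.03), so the pools differed in their makeup. They also differed in sex: the Y-linked gene Uty stood at 137 and 56.4 CPM in the gated nuclei and Xist at 2521 and 3266 CPM, and sex-linked marker genes were left out of the counts between libraries.

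The gate genes define the nuclei, and their values describe the choice. Values are given below as cOE then control, in CPM summed over the nuclei of a group. Notum stood at 632 and 419 CPM in the gated nuclei and at 56.8 and 44.1 CPM in all other kept nuclei. Nkd1 stood at 953 and 1049 CPM against 99.8 and 129 CPM. Tnc, the matrix glycoprotein tenascin-C, stood at 818 and 893 CPM against 120 and 134 CPM. These 3 genes were all lower in the remaining nuclei in each library. Epha3, an Eph receptor for membrane-bound ephrins, stood at 1888 and 1756 CPM against 247 and 309 CPM. Dab1, the adaptor protein of reelin signalling, stood at 130 and 135 CPM against 11.7 and 13.4 CPM. Celf4, an RNA-binding protein, stood at 155 and 182 CPM against 25.4 and 30.3 CPM. Epha3 and Nkd1 admitted the most nuclei: Epha3 was detected in 94.6 and 93.9% of the gated nuclei and Nkd1 in 88.1 and 90.4%, Tnc in 76.1 and 79.2%, Notum in 73.5 and 60.4%, Celf4 in 30.4 and 35.3% and Dab1 in 25.6 and 26.4%. Notum and Nkd1 were detected together in 61.6 and 50.9%. Thus a gated nucleus need not hold both name-giving genes: 482 and 572 had Nkd1 without Notum, and 216 and 138 had Notum without Nkd1.

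**Figure D1:**
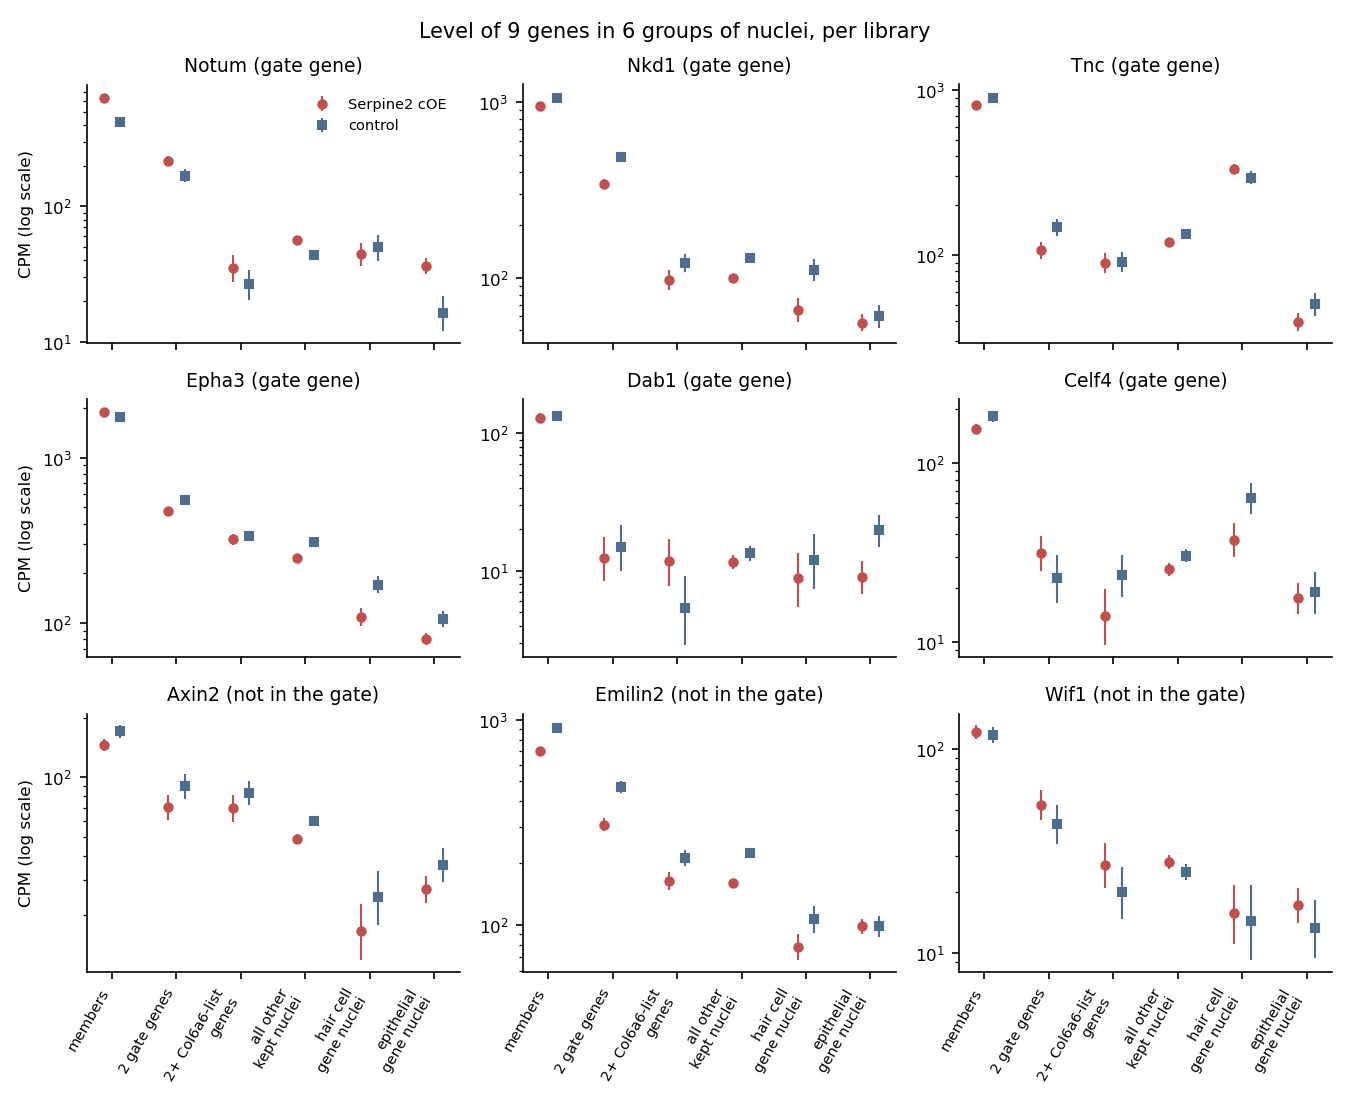
Each panel plots 1 gene as CPM (log axis) in 6 groups of nuclei (gated nuclei are marked members in all plots), red circles for the cOE and blue squares for the control library, with bars for exact Poisson 95% intervals. The 6 gate genes and Axin2, Emilin2 and Wif1 are highest in the gated nuclei in both libraries, for example Emilin2 at 704 and 909 CPM.

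The number of gate genes graded the nuclei without a gap at the threshold. In cOE 776 nuclei had 3 of the 6 genes, 604 had 4, 313 had 5 and 125 had all 6, and in control these numbers were 646, 448, 263 and 88. Nuclei just inside the threshold, with 3 genes, had Nkd1 at 597 and 615 CPM, and nuclei just outside it, with 2 genes (911 and 785 nuclei), had it at 341 and 488 CPM. Emilin2, which the gate did not use, stood at 554 and 671 CPM just inside and at 308 and 469 CPM just outside. Axin2 stood at 121 and 135 CPM just inside and at 71 and 90 CPM just outside. Emilin2 and Axin2 were thus lower with 2 gate genes than with 3, in both libraries. Just outside the threshold, Axin2 was near its level in other mesenchymal nuclei, which is given below.

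Marker lists were read for the label. Of the markers of mesenchyme, the transcription factor genes Tbx18 (351 and 354 CPM) and Pou3f4 (110 and 131 CPM) and the receptor gene Pdgfra (146 and 154 CPM) were higher in the gated nuclei than in epithelial gene nuclei, where they stood at 92.7 and 103, 35.2 and 42.4, and 34.8 and 37.3 CPM. Col1a2, a chain of type I collagen, stood at 323 and 358 CPM against 134 and 117 CPM there. Ebf1, which makes up most of the list's sum, was no lower in epithelial gene nuclei (6729 and 6712 CPM) than in the gated nuclei (4811 and 4595 CPM) and does not separate them. The other 14 mesenchyme markers summed to 2287 and 2374 CPM in the gated nuclei, 1088 and 996 CPM in epithelial gene nuclei, 713 and 897 CPM in hair cell gene nuclei, and 3837 and 3708 CPM in other mesenchymal nuclei. All other kept nuclei, which hold mesenchyme and epithelium together, had 2251 and 2542 CPM, so the gated nuclei did not stand above them. The markers of the label were thus above the epithelial gene and hair cell gene nuclei, below other mesenchymal nuclei and near the level of the tissue as a whole. The tympanic border markers (Emilin2, Axin2, Lef1, Tnc and Notum, of which the gate used Tnc and Notum) summed to 2967 and 3064 CPM, against 646 and 751 CPM in all other kept nuclei.

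Markers of other cell types were mostly low but not absent. The hair cell list summed to 63.0 and 55.9 CPM, against 3203 and 2799 CPM in hair cell gene nuclei, and the macrophage list to 60.2 and 78.3 CPM. The inner sulcus and interdental list summed to 1034 and 627 CPM, against 4770 and 4763 CPM in epithelial gene nuclei, and so differed between the libraries. In other mesenchymal nuclei that list summed to 945 and 633 CPM. The supporting cell list also differed between the libraries, at 209 and 142 CPM in the gated nuclei. It stood at 215 and 141 CPM in other mesenchymal nuclei and 465 and 475 CPM in epithelial gene nuclei. In the gated nuclei its 5 genes with enough UMIs had a median log2 ratio of cOE over control of 0.64, beside 0.02 over all genes. Of these 5, 0 were at least 2-fold higher in cOE, beside 0.386% over all genes. The part of RNA of these cell types in the differences between libraries was not tested. The neuron list summed to 1536 and 1529 CPM, of which the synaptotagmin gene Syt1 alone gave 1393 and 1435 CPM. The fibrocyte list summed to 1862 and 1782 CPM, the osteoblast and chondrocyte list to 956 and 967 CPM, the endothelial list to 596 and 611 CPM and the pericyte list to 55.8 and 61.8 CPM. Scrublet, a doublet caller, marked 0 nuclei with its automatic threshold. By its highest scores, taken at the usual doublet rate for the loading, 10.6 and 9.97% of the gated nuclei were marked. That rate fixed the share over all scored nuclei at 9.61 and 7.85%. The marked nuclei stayed in.

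Clustering that left out all 16 genes of the gate spread the gated nuclei over several of its 24 clusters. Cluster 1 held 903 and 698 of them, 49.1% of the total, and gated nuclei made up 76.6% of that cluster. Its leading genes included Myadml2os, Gpr39, Notum, Rarres1, Nav2, Aldh1a7 and Dab1. Cluster 6, led by Gas2l3, Slc5a7, Cnr1, Qrfprl and Cacna1e, held 295 and 235, or 16.2%, and they made up 50% of it. Clusters 2 (led by Opcml), 0 (led by Col6a6) and 3 (led by Cbln4), of whose leading genes Col6a6 and Cbln4 are on the exclusion list for other mesenchyme, held 107 and 111, 124 and 86, and 75 and 67. Cluster 12, led by Galr1, Ano1 and Itgb6, held 95 and 40, cluster 16, led by Runx2 and Dio2, 50 and 59, and cluster 11, led by Iqcj and the roof epithelium gene Otx2, 61 and 44. The gated nuclei were therefore a core in cluster 1 with members in clusters that other genes lead. Of the 15 nearest neighbours of a gated nucleus, a median of 73.3% in cOE and 66.7% in control were gated too, and of those of other nuclei a median of 0%. The 1156 and 934 nuclei of cluster 1, gated or not, made up 11.2 and 10.9% of the libraries, a ratio of 1.03 (0.951 to 1.12).

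**Figure D2:**
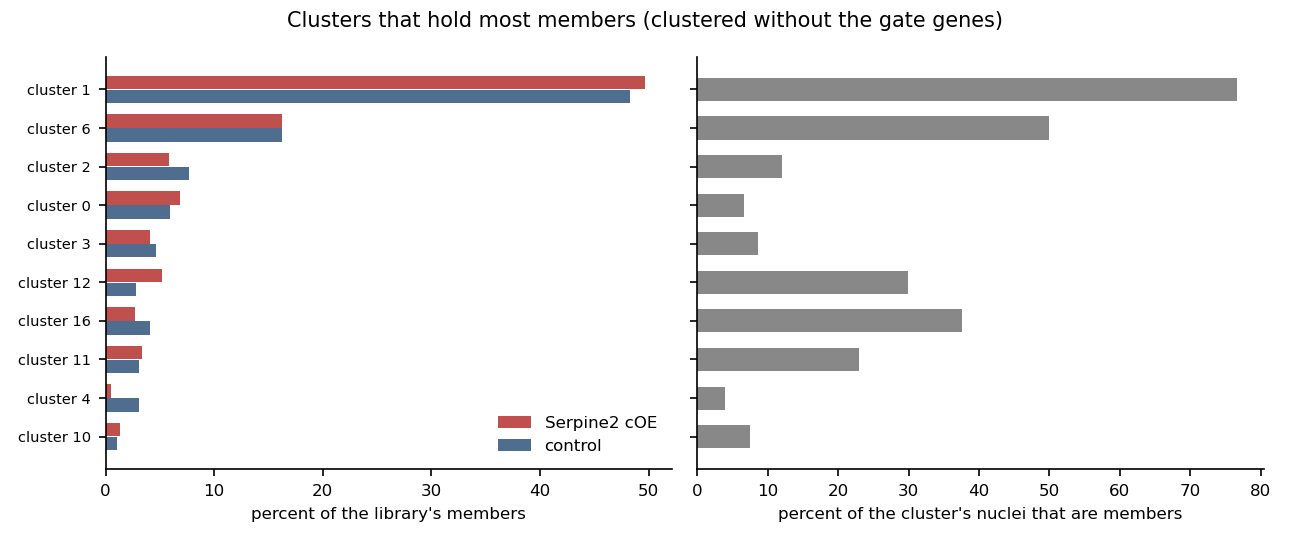
The left panel plots the percent of each library's gated nuclei that fell in each of 10 clusters (red cOE, blue control), and the right panel the percent of each cluster's nuclei that were gated. Cluster 1 holds 49.1% of the gated nuclei and is 76.6% gated, and cluster 6 follows with 16.2% and 50%.

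Levels within the gate followed this division. In gated nuclei of cluster 1, Notum stood at 1090 and 731 CPM, and in those outside it at 328 and 196 CPM. Nkd1 stood at 1578 and 1652 CPM inside and 537 and 619 CPM outside. Emilin2, which the gate did not use, stood at 1273 and 1670 CPM inside and 326 and 366 CPM outside. All 3 genes were thus several-fold higher in the gated nuclei of cluster 1, in both libraries. Since clusters were made from these same nuclei, these values are descriptions.

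To place the gated nuclei within the mesenchyme, they were set beside nuclei with genes of the Col6a6 list. The comparator planned for this (at least 3 of the 6 Col6a6-list genes, fewer than 2 gate genes) held only 51 and 59 nuclei with 173756 and 227440 UMIs. A wider comparator (at least 2 Col6a6-list genes, fewer than 3 gate genes), chosen after the data were seen, held 740 and 776 nuclei and is used below as other mesenchymal nuclei. A gene was counted as higher or lower where it differed at least 2-fold the same way in both libraries. Of 12927 genes with enough UMIs, 177 (1.37%) were higher in the gated nuclei and 236 (1.83%) lower. Against the planned comparator 119 of 12846 genes (0.926%) were higher and 342 (2.66%) lower. Against all other kept nuclei 223 of 17459 genes (1.28%) were higher and 1270 (7.27%) lower. The gate took nuclei by their genes, so these counts describe it and carry no test.

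Outside the gate, genes far above other mesenchyme had varied functions. Bcas1 stood at 26.7 and 29.8 CPM in the gated nuclei against 1.75 and 2.07 CPM in other mesenchymal nuclei, log2 ratios of 3.93 and 3.85. Gpr39, a zinc-sensing G protein-coupled receptor, stood at 30.2 and 36.4 CPM against 2.62 and 2.90 CPM. Both genes were all but absent from other mesenchymal nuclei. Aldh1a7, an aldehyde dehydrogenase, stood at 54.8 and 71.8 CPM against 6.55 and 7.47 CPM. Nav2, a neuron navigator protein that acts on the cytoskeleton, stood at 2193 and 2431 CPM against 296 and 411 CPM. Plpp4, a phospholipid phosphatase, stood at 701 and 735 CPM against 132 and 158 CPM. The log2 ratios of these 3 genes lay between 2.22 and 3.27. Fbxw10 (3.38 and 3.06), St6galnac5 (2.59 and 3.05), Slc22a4 (2.65 and 2.5), Lypd1 (2.60 and 2.21), Qrfprl (2.14 and 2.30) and Dgki (1.88 and 2.31) were higher as well, given as log2 ratios.

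Genes of adhesion, guidance and matrix turnover were among those at least 2-fold lower than in other mesenchyme. Adamts12 and Fap, named below, were picked by their rank against the planned comparator. Cdh11, the mesenchymal cadherin 11, stood at 102 and 122 CPM in the gated nuclei and at 551 and 559 CPM in other mesenchymal nuclei, log2 ratios of -2.43 and -2.20. Ntrk3, the neurotrophin-3 receptor, stood at 12.3 and 13.5 CPM against 63.8 and 82.9 CPM, log2 ratios of -2.37 and -2.62. Gpc3, the proteoglycan glypican 3, stood at 18.3 and 22.4 CPM against 93.5 and 93.3 CPM. All 3 are cell surface proteins. Unc5c, a netrin receptor, stood at 190 and 174 CPM against 706 and 782 CPM. Nrxn3, a presynaptic adhesion protein, stood at 1018 and 970 CPM against 4041 and 4098 CPM, log2 ratios of -1.99 and -2.08. Adamts12, a secreted metalloprotease, stood at 134 and 134 CPM against 366 and 400 CPM, and Fap, a membrane protease of fibroblasts, at 113 and 113 CPM against 247 and 239 CPM. The imprinted non-coding RNAs Meg3 (145 and 188 CPM against 560 and 687 CPM) and Rian (log2 ratios of -2.14 and -2.16), which come from the same imprinted domain, were lower together.

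The Wnt target list was read by the roles of its members. It holds 15 genes, of which Notum and Nkd1 belong to the gate and 12 of the other 13 had enough UMIs. Of these 12, 6 were at least 2-fold higher than in other mesenchymal nuclei in both libraries and 0 lower, with a median log2 ratio (the mean of both libraries) of 0.84, beside 1.37% higher and a median of 0.02 over all genes. Against the small planned comparator 3 of 12 were higher. Axin2, the scaffold of the beta-catenin destruction complex, stood at 147 and 171 CPM against 69.9 and 83.4 CPM, log2 ratios of 1.07 and 1.04. Against the planned comparator its smaller log2 ratio was 0.77, under the 2-fold limit. Tnfrsf19 (Troy), a receptor of the tumour necrosis factor family, stood at 468 and 424 CPM against 156 and 146 CPM, log2 ratios of 1.58 and 1.53. Apcdd1, a membrane inhibitor of Wnt, stood at 181 and 216 CPM against 61.6 and 60.1 CPM, log2 ratios of 1.56 and 1.84. Bambi, a pseudoreceptor that dampens BMP and TGF-beta signals, stood at 120 and 98.6 CPM against 41.9 and 32.4 CPM, log2 ratios of 1.51 and 1.61. Together with the transcription factor gene Sp5 (17.2 and 14.7 CPM against 5.24 and 6.22 CPM) and the R-spondin receptor gene Lgr5 (51.7 and 53.4 CPM against 24.5 and 17.4 CPM), these are the 6. Lgr5 did not set the gated nuclei apart from the whole tissue: all other kept nuclei had it at 61.9 and 55.5 CPM and hair cell gene nuclei at 204 and 202 CPM. The others were under 2-fold. Lef1, the TCF/LEF factor gene, stood at 667 and 673 CPM against 438 and 441 CPM. Rnf43 (log2 ratios of 0.32 and 0.38) and Znrf3 (0.26 and 0.22), ubiquitin ligases that remove Frizzled from the membrane, Ccnd1 (-0.29 and -0.19), the cyclin D1 gene, and Nkd2 (0.34 and -0.06), the paralog of Nkd1, had values near those of other mesenchyme.

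Secreted inhibitors, ligands and receptors were mostly near other mesenchyme, beside 1.37% of all genes higher and 1.83% lower. Of 16 secreted inhibitors 8 had enough UMIs and 1 was higher: Wif1, which binds Wnt proteins outside the cell, stood at 121 and 117 CPM against 27.1 and 19.9 CPM, log2 ratios of 2.16 and 2.55, and at 226 and 216 CPM in cluster 1. Trabd2b (Tiki2), a membrane protease that cleaves Wnt proteins, stood at 471 and 538 CPM against 239 and 326 CPM, log2 ratios of 0.98 and 0.72. Dkk2 stood at 97.7 and 97.4 CPM against 73.8 and 91.2 CPM. Of 19 Wnt ligands 6 had enough UMIs, and of these 0 were higher and 1 was lower, Wnt6, at 9.14 and 10.3 CPM against 23.6 and 20.7 CPM. Wnt5a, a ligand known mainly for beta-catenin-independent signalling, stood at 83.2 and 78.8 CPM against 161 and 133 CPM. Of 20 receptors and co-receptors 19 had enough UMIs and 1 was higher, Fzd10, at 40.5 and 57.8 CPM against 17.0 and 21.2 CPM, log2 ratios of 1.25 and 1.45, and Ror1, a receptor for Wnt5a, stood at 202 and 227 CPM against 312 and 371 CPM. Of 16 core pathway genes 0 passed 2-fold in either direction, and the beta-catenin gene Ctnnb1 stood at 269 and 246 CPM against 186 and 163 CPM. The core genes had a median log2 ratio of -0.02. A single gene in each of the inhibitor, ligand and receptor lists is too few to set against these shares.

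**Figure D3:**
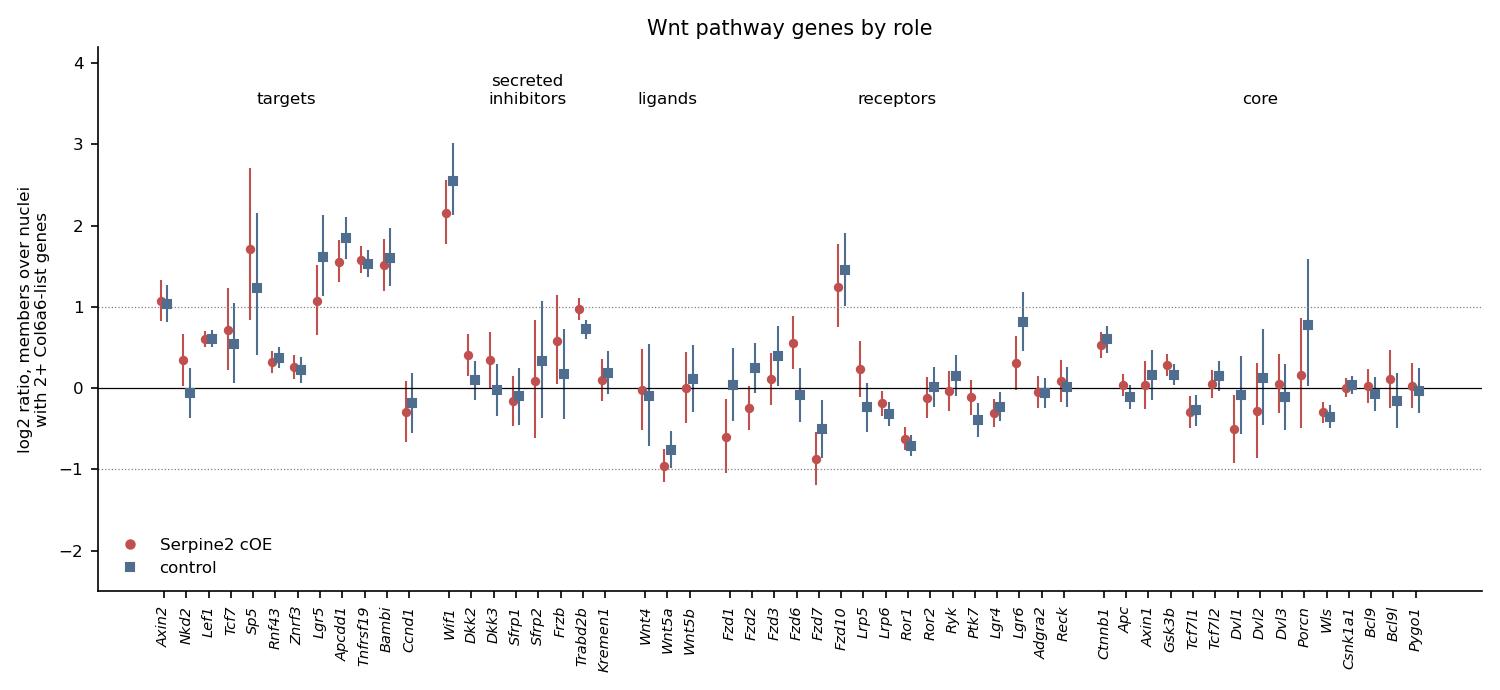
The horizontal axis lists Wnt pathway genes with at least 100 UMIs by role and the vertical axis gives the log2 ratio of gated over other mesenchymal nuclei, red for cOE and blue for control, with 95% intervals for counting error and dotted lines at 2-fold. Targets such as Apcdd1 (1.56 and 1.84) and the inhibitor Wif1 (2.16 and 2.55) lie above the upper line, and no core gene passes a line in both libraries.

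The share of nuclei with Axin2 was compared after each nucleus was thinned to 1000 UMIs, which leaves out 10 and 28 shallower gated nuclei. It was 14.4% in cOE (260 of 1808, 12.8 to 16.1%) and 17.6% in control (250 of 1417, 15.7 to 19.7%). It was 6.65 and 8.19% in other mesenchymal nuclei, 2.38 and 3.44% in epithelial gene nuclei, 2.20 and 2.45% in hair cell gene nuclei and 1.75 and 1.57% in macrophage gene nuclei, which stand here for the background of free RNA (median depth 1948 and 2006 UMIs before thinning). The share in the gated nuclei was above that of each of these groups in the same library. Without thinning it was 31.8 and 36.3%. In the small planned comparator the thinned share in cOE was 11.8% (6 of 51, 4.44 to 23.9%), an interval that includes the gated share. At 1500 UMIs that comparator had 15.7% (7.02 to 28.6%) and 5.45% (1.14 to 15.1%), against 20.7 and 22.5% in the gated nuclei.

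Matrix genes split in direction. Emilin2, an elastin-associated glycoprotein, stood at 704 and 909 CPM in the gated nuclei against 164 and 212 CPM in other mesenchymal nuclei, a log2 ratio of 2.10 in both libraries. Fn1 (fibronectin) stood at 610 and 782 CPM against 196 and 204 CPM, log2 ratios of 1.64 and 1.94. Lamc3, the laminin gamma 3 chain, stood at 55.2 and 61.8 CPM against 10.5 and 10.8 CPM, log2 ratios of 2.40 and 2.52. With tenascin-C, which the gate used, these 3 genes were higher than in other mesenchyme. Of the list of 21 basement membrane genes, however, 17 had enough UMIs, and among them Lamc3 was the 1 gene at least 2-fold higher and 5 were lower (median log2 ratio -0.67), beside 1.37% higher, 1.83% lower and a median of 0.02 over all genes. Lama2, the laminin alpha 2 chain, stood at 233 and 263 CPM against 803 and 801 CPM. Col4a6, a type IV collagen chain, stood at 11.6 and 12.6 CPM against 62.0 and 62.6 CPM. Nid1 (nidogen 1) stood at 16.4 and 20.5 CPM against 48.5 and 60.6 CPM, and with Col4a5 and Nid2 these are the 5. Of 26 fibrillar matrix genes 24 had enough UMIs, and 2 were higher and 4 lower (median log2 ratio -0.68), beside the same shares over all genes. Col3a1, the type III collagen chain, stood at 134 and 132 CPM against 424 and 358 CPM, and Dcn, the proteoglycan decorin, at 110 and 69.9 CPM against 343 and 249 CPM. Itga8, the integrin alpha 8 chain, a receptor for fibronectin and tenascin-C, stood at 568 and 623 CPM against 1134 and 1240 CPM. Tenascin-X (Tnxb), the paralog of tenascin-C, stood at 5.97 and 4.2 CPM against 26.7 and 25.7 CPM, the opposite direction to Tnc.

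Among genes related to Epha3 and Dab1 few others differed, and the counts below stand beside 1.37% higher and 1.83% lower over all genes. Of 15 Eph receptors and ephrins 1 was higher, Ephb2, at 63.0 and 82.3 CPM against 30.6 and 40.2 CPM. Epha5 stood at 1059 and 1126 CPM against 777 and 842 CPM, and Epha7 at 823 and 792 CPM against 1271 and 1086 CPM. Of 7 genes of reelin signalling other than Dab1, 0 passed 2-fold. Reln itself stood at 2.24 and 2.56 CPM in the gated nuclei. Of 30 mesenchymal and other transcription factor genes 0 were higher and 4 were lower: Prrx2, Runx2, Osr1 and Osr2. Of 31 genes of BMP and TGF-beta signalling 0 were higher and 1 was lower, the BMP antagonist gene Chrdl1, and of 19 FGF genes 0 were higher and 2 lower, Fgf12 and Spry4. Of 12 Notch genes, 4 proliferation genes and 8 plasminogen system genes 0 passed 2-fold in either direction.

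The genes next to Notum on chromosome 11 were higher in the gated nuclei as well. This region was singled out after its values were seen. Of 17 tested genes within 100 kb of Notum, 9 were at least 2-fold higher than in other mesenchymal nuclei in both libraries, and 15 had log2 ratios above 0 in both, with a median of 1.27. Over all genes 1.37% were higher. Of 21 genes between 100 and 500 kb away, 0 were higher, and their median log2 ratio was 0.13. The 9 genes lay in a stretch of 116 kb, chr11:120499079-120614796 (GRCm39), in which 13 genes were tested. Mafg, a small Maf transcription factor, stood at 120 and 122 CPM against 44.6 and 52.7 CPM. Pycr1, an enzyme of proline synthesis, 2.18 kb from Notum, stood at 27.4 and 29.6 CPM against 4.37 and 3.32 CPM, with a smaller log2 ratio of 2.65. Rac3, a small GTPase, 60.3 kb away, stood at 81.7 and 79.2 CPM against 29.3 and 26.5 CPM. Genes on both sides of Notum were thus higher. Aspscr1 stood at 70.7 and 76.7 CPM against 28.8 and 32.4 CPM, Lrrc45 at 62.5 and 64.6 CPM against 21.4 and 31.5 CPM, and the neuropeptide gene Npb at 15.3 and 10.3 CPM against 5.68 and 3.32 CPM. Myadml2os stood at 38.4 and 39.9 CPM against 1.31 and 2.07 CPM, and Notumos at 4.85 and 4.66 CPM against 1.31 and 1.66 CPM. Gm17178 is the ninth. Myadml2os and Notumos overlap Notum on the opposite strand, as Gm17178 overlaps Aspscr1. Myadml2os also overlaps the start of Pycr1 on the opposite strand. Whether counting used strand is not given in the sources used here, so reads of overlapping genes may not be told apart. Inside the stretch Pcyt2 (102 and 107 CPM against 52.4 and 58.1 CPM) and Sirt7 (45.3 and 42.0 CPM against 24.9 and 21.2 CPM) were just under 2-fold. Also within 100 kb, the smaller log2 ratios of P4hb (0.13) and Anapc11 (0.20) were near 0, and Arhgdia and Alyref were not higher in both libraries.

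**Figure D4:**
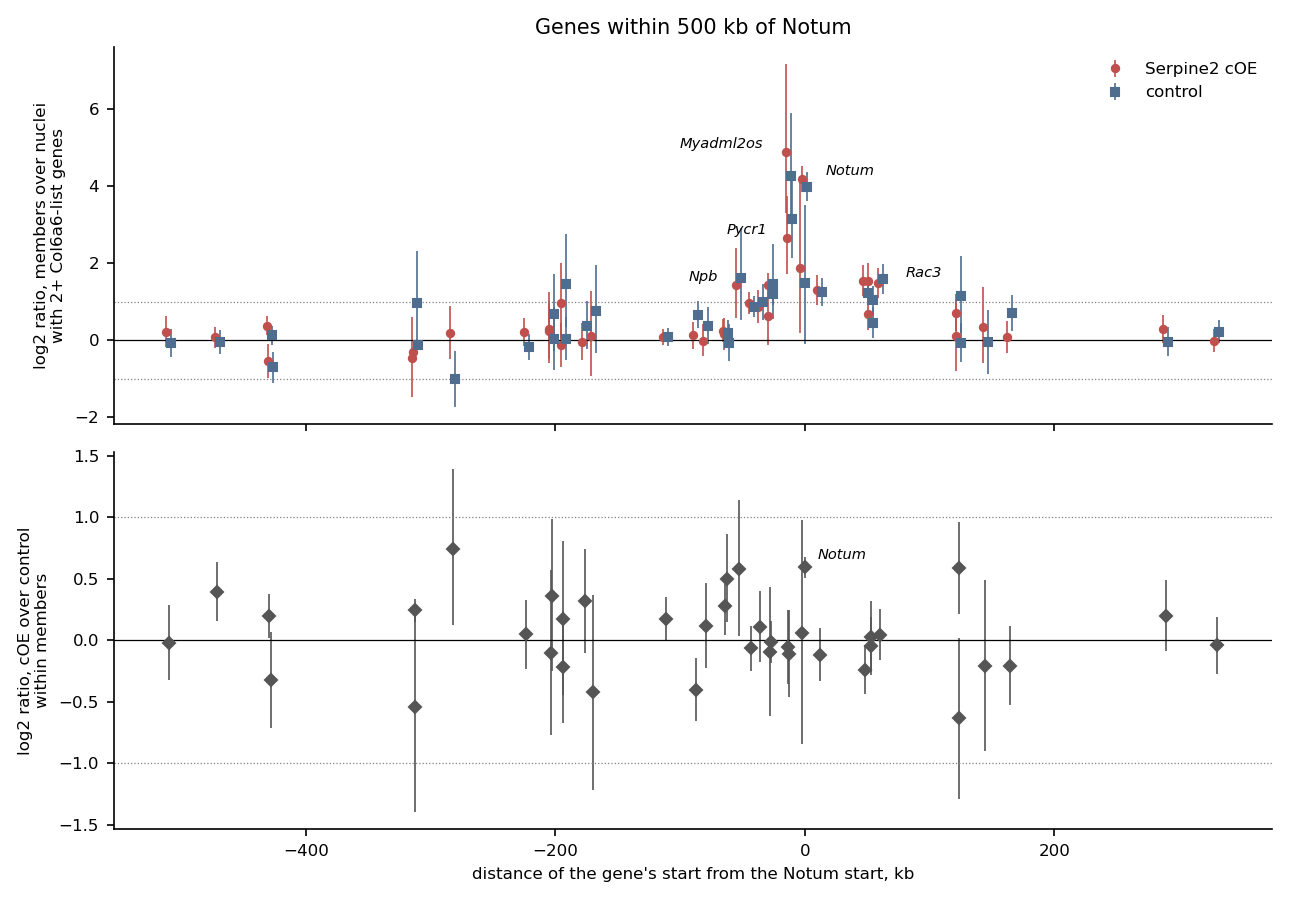
The horizontal axis is the distance in kb of each gene's start from the start of Notum in both panels. The upper panel plots the log2 ratio of gated over other mesenchymal nuclei and the lower panel that of cOE over control within the gated nuclei, with 95% intervals. In the upper panel 9 of 17 genes within 100 kb (counted by the gap between genes) pass 2-fold in both libraries and 0 of 21 beyond do. In the lower panel Notum stands at 0.59 and Npb at 0.58, while Mafg, Pycr1 and Rac3 lie at -0.01, -0.11 and 0.04.

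The count near Notum depended on which nuclei were taken. With the gate applied without Notum 8 of 16 neighbours were higher, and with the gated nuclei of cluster 1 alone 11 of 16 were. With the gated nuclei outside cluster 1 it was 2 of 15, with those that had Nkd1 and no Notum UMI 2 of 14, and against the small planned comparator 3 of 17. Over all genes 0.926% were higher against the planned comparator. For the other sets of nuclei the share over all genes was not taken. Their counts therefore do not show how much of the change was particular to the region. Within the gate, nuclei with both Notum and Nkd1 had Mafg at 142 and 150 CPM and those with Nkd1 and no Notum UMI at 81.2 and 95.4 CPM. Pycr1 stood at 34.3 and 42.2 CPM against 17.3 and 15.5 CPM, and Rac3 at 104 and 109 CPM against 42.4 and 50.1 CPM, in the same 2 sets. These 3 neighbours were thus higher where Notum itself was detected, but this was not particular to the region. Emilin2, on chromosome 17, was higher there too. It had 2965 and 2898 UMIs of 3379438 and 2274767 with both genes. With Nkd1 and no Notum UMI it had 557 and 834 of 1391195 and 1677116. Around the other gate genes few neighbours were tested: 1 of 3 was higher around Nkd1, 1 of 1 around Tnc (8030451A03Rik, an antisense gene that overlaps Tnc, at 1093 and 1294 CPM against 106 and 118 CPM), 2 of 3 around Celf4, and 0 were tested around Epha3 and Dab1.

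Between the libraries, Notum was higher in cOE. In the gated nuclei 3387 Notum UMIs were counted in cOE and 1797 in control, 632 and 419 CPM, a log2 ratio of 0.59 (0.51 to 0.68). The gate itself used Notum, so the value was taken again in nuclei chosen without it. With Notum left out of the gate (1359 and 1161 nuclei) it stood at 620 and 393 CPM, a log2 ratio of 0.66 (0.56 to 0.75), and in all nuclei of cluster 1 at 982 and 640 CPM, 0.62 (0.52 to 0.71). After thinning to 1000 UMIs, Notum was detected in 40.6% (38.0 to 43.3%) and 30.8% (28.2 to 33.6%) of the nuclei gated without it. The difference was therefore there whether or not Notum took part in the choice. It was 0.76 in gated nuclei with 3 gate genes, 0.48 with 4, 0.68 with 5 and 0.36 with 6. It was not particular to these nuclei: the log2 ratio was 0.37 (0.24 to 0.49) in all other kept nuclei and 1.16 (0.70 to 1.64) in epithelial gene nuclei, and -0.16 (-0.59 to 0.27) in hair cell gene nuclei. Each group is 1 library of pooled cochleae, so that animals, dissection and genotype cannot be told apart, and none of these values is a test of the genotype.

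The other Wnt genes named here had lower ratios than Notum in the gated nuclei. Nkd1 had a log2 ratio of -0.14 (-0.20 to -0.08), and Axin2, with 788 and 735 UMIs, one of -0.22 (-0.37 to -0.07). Tnfrsf19 (0.14, 0.05 to 0.23) and Bambi (0.28, 0.10 to 0.46) lay above 0. Apcdd1 (-0.25, -0.38 to -0.12) and Fzd10 (-0.51, -0.78 to -0.25) lay below it, and Lef1 (-0.01) and Wif1 (0.05) were near it. Of the 12 Wnt target genes 0 passed 2-fold in either direction, and their median log2 ratio was 0.02. Over all genes 0.386% were higher and 0.16% lower, with a median of 0.02, so 12 genes are too few to set against these shares. The 3 neighbours Mafg (-0.01), Pycr1 (-0.11) and Rac3 (0.04) did not share the difference of Notum. Nor did Aspscr1 (-0.12), Lrrc45 (-0.05), Myadml2os (-0.05) and Gm17178 (-0.24), while Notumos had a wide interval (0.06, -0.84 to 0.97). The neighbour Npb, however, stood at 0.58 (0.03 to 1.14), near the value of Notum. Of other genes within 100 kb, Alyref (0.50) and Anapc11 (0.28) were higher in cOE and P4hb (-0.40) was lower. Emilin2 was lower in cOE, at 704 against 909 CPM, a log2 ratio of -0.37 (-0.43 to -0.30), and was lower in all other kept nuclei too (-0.48). Epha3 stood at 0.10 (0.06 to 0.15) in the gated nuclei and at -0.32 in all other kept nuclei.

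Few genes differed at least 2-fold between the libraries in the gated nuclei: 41 of 10612 genes (0.386%) were higher in cOE and 17 (0.16%) lower. In all nuclei of cluster 1, which was found without the gate genes, 22 of 7970 (0.276%) were higher and 9 (0.113%) lower. Slc22a3, an organic cation transporter, had the highest ratio, at 18.1 against 5.59 CPM, a log2 ratio of 1.69 (1.04 to 2.40), and 0.21 in all other kept nuclei. It was higher in epithelial gene nuclei (88.4 and 121 CPM) than in the gated nuclei and is a leading gene of clusters 12 and 5, as is the epithelial marker Ano1. These clusters held 95 and 10 gated nuclei in cOE and 40 and 1 in control. Its log2 ratio was 0.67 in cluster 1, 0.72 in gated nuclei with fewer than 2 epithelial genes and 0.97 without the UMI ceiling, under 2-fold in each. Most of the others were also higher in cOE outside the gate. Rnase1 stood at 40.1 against 14.0 CPM (1.52, and 1.16 in other nuclei), the bone matrix genes Ibsp at 50.4 against 18.9 CPM (1.42, and 1.94) and Spp1 at 34.3 against 13.1 CPM (1.39, and 1.13), and the prostaglandin D synthase gene Ptgds at 37.7 against 14.7 CPM (1.36, and 1.03). Fxyd3 (1.35), Krtcap3 (1.20), Sh2d6 (1.39), Rnf128 (1.30), Plet1 (1.23) and Pvalb (1.19) were higher as well. Dgkb, a diacylglycerol kinase, stood at 109 against 42.0 CPM in the gated nuclei, but its log2 ratio was 0.42 in cluster 1. Ano1, a chloride channel, stood at 269 against 134 CPM, and the inner sulcus and interdental list as a whole at 1034 against 627 CPM. With gated nuclei that had fewer than 2 of the epithelial genes, 26 genes passed 2-fold in either direction in place of 58, and the log2 ratios of Dgkb (0.48), Sh2d6 (0.66), Krtcap3 (0.72), Rnf128 (0.86) and Fxyd3 (0.99) were under 1.

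Immediate early genes were the list with the most genes lower in cOE: 3 of 7 tested, with a median log2 ratio of -0.58. Over all genes 0.16% were lower (17 of 10612) and the median was 0.02. Fos stood at 6.90 against 16.1 CPM (-1.22), Fosb at 7.09 against 16.1 CPM (-1.18) and Egr1 at 21.6 against 49.4 CPM (-1.19). All other kept nuclei gave log2 ratios of -1.06, -1.38 and -0.98, so the direction was the same in the rest of the tissue. Without the UMI ceiling the log2 ratios of Fos (-0.99), Fosb (-0.99) and Egr1 (-0.97) were just under 2-fold, and outside cluster 1 that of Fosb was -0.16. Col1a1, a type I collagen chain, stood at 5.22 against 17.2 CPM, a log2 ratio of -1.72 (-2.41 to -1.08), and its ratio was -0.62 in all other kept nuclei and -0.46 in cluster 1. Gated nuclei of cluster 4, which has Col1a1 and Actb among its leading genes, numbered 10 in cOE and 44 in control. Tmem178b stood at 7.09 against 16.8 CPM (-1.24, and 0.02 in other nuclei) and Il34, a ligand of the macrophage receptor Csf1r, at 7.83 against 17.9 CPM (-1.20, and -0.61).

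**Figure D5:**
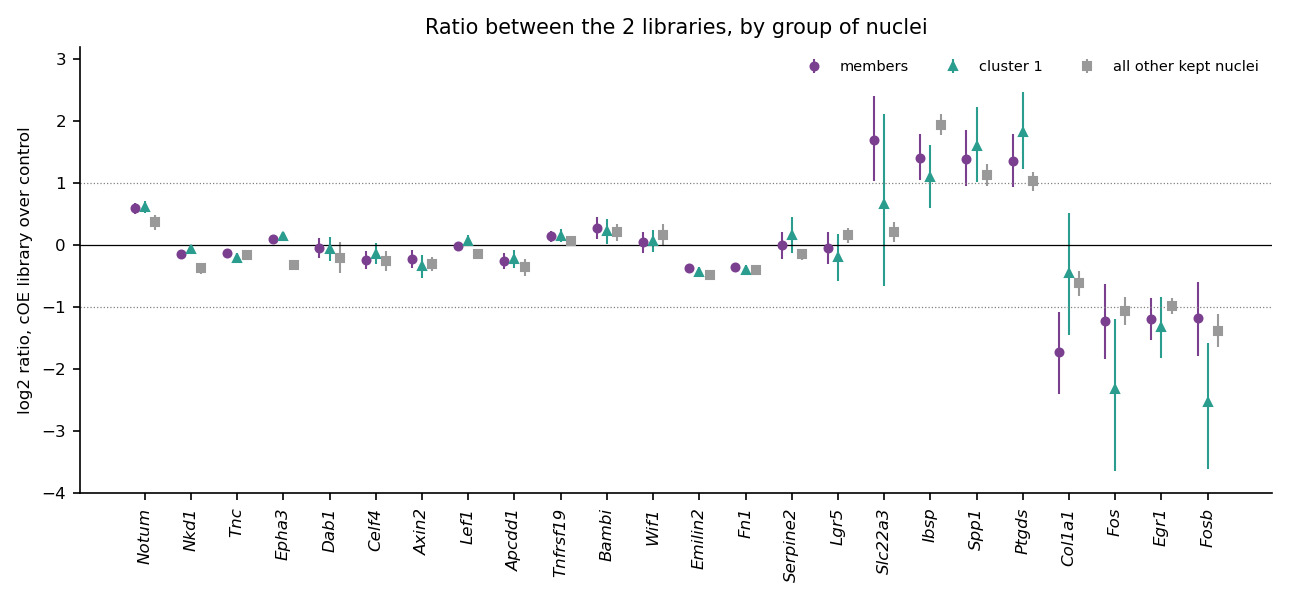
The vertical axis gives the log2 ratio of cOE over control for 24 genes (horizontal axis) in the gated nuclei, in all nuclei of cluster 1 and in all other kept nuclei, with 95% intervals for counting error. Notum lies above 0 in all 3 groups (0.59, 0.62 and 0.37) and Emilin2 below (-0.37, -0.43 and -0.48).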

How the data were processed

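The authors deposited filtered 10x matrices of UMI counts per gene and nucleus, made with Cell Ranger 8.0.1 per the file headers. The series text names GRCm39 and the submitters' processing notes mm10, and whether introns or strand were used is not given in the sources used here. Nuclei were filtered and gated as the report states. UMI counts were summed per library and group and divided by the group's total to give CPM per 1000000 UMIs, with exact Poisson intervals, exact conditional intervals for ratios and Clopper-Pearson intervals for shares. A gene was tested between libraries with at least 100 UMIs over both, and between groups with at least 20 UMIs in either group in each library. A call is a difference of at least 2-fold. Counts under 3 were set to 3 for ratios, and a ratio that this turned was set to 0. Nuclei were clustered with scanpy 1.11.5 (Leiden, 2970 genes, 50 components, resolution 1). Doublets were scored with Scrublet and none removed. edgeR 4.0.16 gave TMM factors as an alternative scaling only. Scripts were tested on simulated data. Members, lists and comparisons were chosen with earlier results of these data known, and the wider comparator and the region around Notum after values were seen. Named genes were the 16 of the gate, the highest and lowest ratios of each comparison, members of the lists, and, chosen after their values were seen, 8030451A03Rik, Gm17178 and the genes near Notum. A few genes that met the rule are not reported here. Other settings tried were depth and gene minimums, the gate's threshold, thinning, doublets and the choice of nuclei.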

Additional observations from a re-analysis of the deposited data

How the results depend on the processing

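No paired analysis was possible because each group has 1 library. The member share of kept nuclei, as a ratio of cOE over control (1.05), was 0.959 with a minimum of 1000 genes, 1.13 without epithelial gene nuclei and 0.976 with Notum left out of the gate. The 58 genes that differed between libraries became 25 after thinning, 151 and 17 with minimums of 50 and 300 UMIs, 31 in all nuclei of cluster 1, 32 in gated nuclei of cluster 1, 26 with fewer than 2 epithelial genes and 38 with Notum left out of the gate. Against the planned comparator, the 461 genes became 240 with a minimum of 50 UMIs, and TMM scaling gave 161 higher and 249 lower in place of 119 and 342. The thinned share with Axin2 (14.4% in cOE, 17.6% in control) was 31.8 and 36.3% not thinned, 20.7 and 22.5% at 1500 UMIs, 17.1 and 24.2% in cluster 1, 11.7 and 11.3% outside it, and 20.2% in control with at least 4 gate genes. The 9 genes near Notum became 3 against the planned comparator, 2 in nuclei with Nkd1 and no Notum UMI and 2 outside cluster 1. The ratio of shares thus lay on either side of 1, and the share with Axin2 was higher in control except outside cluster 1, where cOE was slightly higher. Single-gene values were compared only by the side of the 2-fold limit on which they lay. The starting values over other mesenchyme were those against the small planned comparator. The counts that follow thus do not describe how stable the ratios against the wider comparator were. Under the planned settings 782 stayed on the same side and 46 crossed it. Under those added after seeing the data the numbers were 283 and 36. The cause of these changes was not tested. With 1 library per group and no replicate, depth limits the genes with few UMIs.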
